A study of Mus musculus with 18 samples.

Results

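The mitochondrial solute carriers of the SLC25 family were examined in mouse liver. Members were all rows of the expression table whose symbol is Slc25a followed by a number, and 46 of 19057 listed genes met that rule. SLC25 proteins sit in the inner mitochondrial membrane, with a few in other membranes, and move metabolites, nucleotides, cofactors and phosphate between the cytosol and the matrix. In the liver they connect the cytosolic and mitochondrial steps of urea synthesis, gluconeogenesis, fatty acid oxidation and fatty acid synthesis. Most are named after their substrate, such as the citrate carrier Slc25a1, the ornithine carrier Slc25a15 and the carnitine-acylcarnitine carrier Slc25a20.

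Liver mRNA had been sequenced in 18 libraries of male ICR mice aged 10 weeks, in 6 groups of 3. Con was the regular diet with saline, and A10 mice were labelled as dosed with 10 mg/kg of alginate oligosaccharide (AOS), a sugar polymer fragment from brown algae. HS mice were fed a high-fat diet starting at week 3 of age and injected at week 5 with 85 mg/kg streptozotocin (STZ), which is toxic to insulin-producing cells, and HS+A10 mice were labelled with the same diet and STZ plus 10 mg/kg AOS. A10-FMT and Con-FMT mice had the diet and STZ and, between weeks 5 and 7, small-intestinal microbiota pooled from AOS-dosed or from control donors. A10 and HS+A10 are known from the sample labels alone, so their dosing days and diets cannot be described further. The labels number the libraries but do not say that each came from its own animal, so the p-values measure only the spread between libraries, which may be technical. Values are RPKM, the reads of a gene scaled by its length and by the mapped reads of the library, so that levels can be compared between genes, and the values of replicates 1, 2 and 3 are given in that order. Tests used limma on log2(RPKM + 1), and a change was called at a Benjamini-Hochberg adjusted p under 0.05 over the 10204 genes whose mean reached 1 RPKM. Changes are given on this log2 scale, on which the change of a gene near 1 RPKM is understated. The 2 groups of a comparison with 3 libraries each cannot reach an exact permutation p under 0.1.

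Some libraries stood apart. For 95.02% of the 1366 genes (mean 5 RPKM or more) that differed by 1.3-fold or more between Con replicates 1 and 2, Con replicate 3 lay between them, and for 91.19% of 738 such genes A10 replicate 3 lay between A10 replicates 1 and 2, against 19.17% to 71.4% for the other 16 libraries. The same held for 11 of 11 carriers in Con and 3 of 3 in A10, and whether this narrows the spread of those groups was not tested. Among carriers alone it was not particular to these libraries. HS replicate 2 lay between the other HS libraries for 10 of 10 carriers, and HS+A10 replicate 3 likewise for 3 of 3. Counts without the third libraries of Con and A10 are given beside the results. Con-FMT replicate 3 held 3.11% of its RPKM in 11 pancreatic acinar genes, against 0.00195% to 0.0067% in the other libraries. The hepatocyte gene Alb was at 21271 to 37253 RPKM in the 18 libraries. The clock output gene Dbp was at 0.36 to 3.41 RPKM in Con, A10 and HS and at 47.3 to 98.8 RPKM in HS+A10, A10-FMT and Con-FMT, and Arntl, its counterpart in the opposite phase, was at 8.84 to 13.4 and at 0.7 to 4.92 RPKM. The daily phase at collection therefore cannot be told apart from treatment in comparisons that cross those 2 sets. The comparisons HS vs Con, A10 vs Con and A10-FMT vs Con-FMT stay within one set by Dbp and Arntl, with 4, 2 and 0 of 12 clock genes called. Phase was thus not shown to be matched in the first of these or in A10 vs Con, where Nr1d1 was at 10.03 to 30.7 RPKM in A10 and 1.22 to 3.68 in Con.

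The carriers differed widely in level. Of the 46, 6 reached a mean of 100 RPKM over the 18 libraries, 18 lay from 10 to under 100, 12 from 1 to under 10 and 10 under 1 RPKM. The most abundant was Slc25a5, an exchanger of ADP for ATP, with a mean of 289 RPKM and 16.41% of the family's summed RPKM. Next came Slc25a39, a carrier needed for mitochondrial glutathione import, at 219 RPKM, the phosphate carrier Slc25a3 at 206, the liver-enriched carrier Slc25a47 at 173, the calcium-regulated ATP-Mg carrier Slc25a23 at 120.3 and the citrate carrier Slc25a1 at 100.04. The heart and muscle form of the ADP-ATP exchanger, Slc25a4, was at 2.54 RPKM. The 10 rows under 1 RPKM were Slc25a35, Slc25a36, Slc25a24, Slc25a27, Slc25a31, Slc25a2, Slc25a53, Slc25a18, Slc25a43 and Slc25a41, and 5 of these were listed at 0 in at least 1 library. These 10 were not tested, and the other 36 passed the filter on the mean of all libraries.

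**Figure D1:**
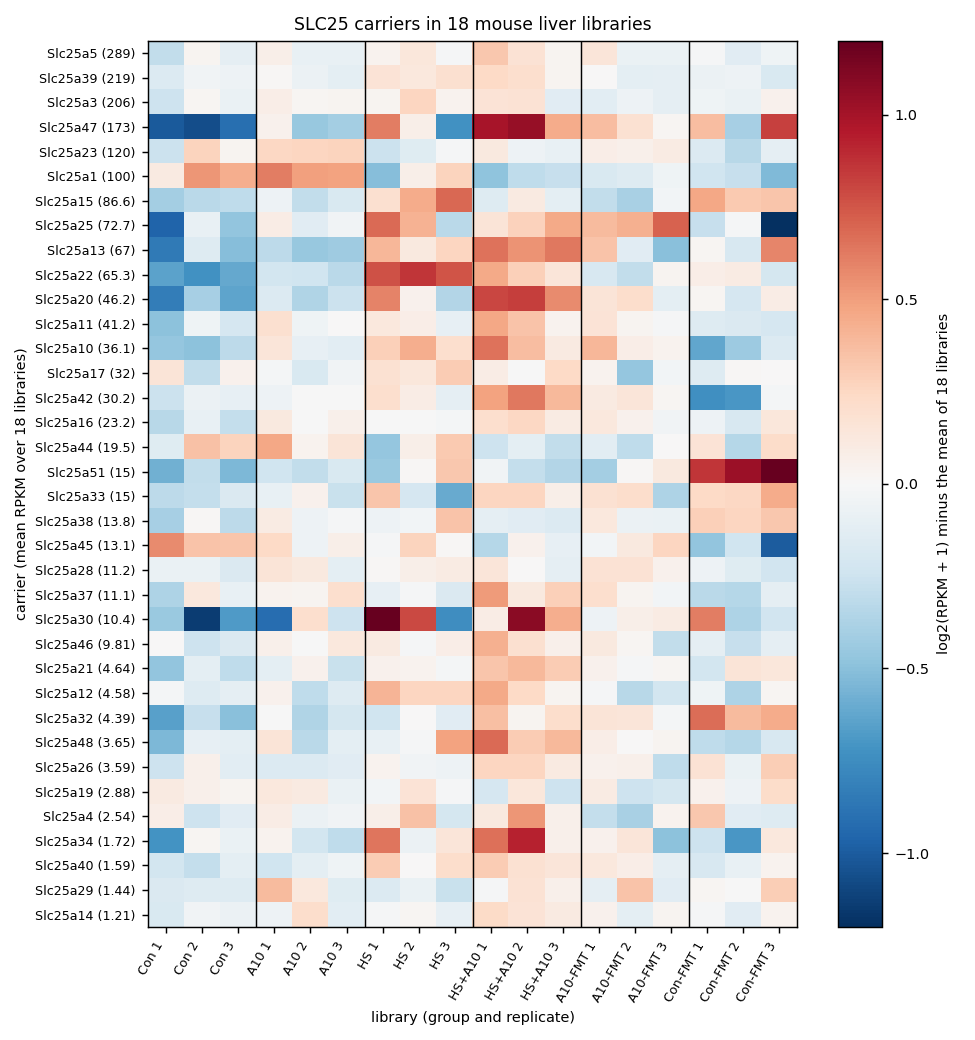
Heat map of the 36 tested carriers (rows, with the mean RPKM over 18 libraries in brackets) in the 18 libraries (columns, by group and replicate). Colour gives log2(RPKM + 1) minus the carrier's mean over all libraries, and Slc25a22 is red in the 3 HS libraries while Slc25a51 is red in the 3 Con-FMT libraries.

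Summed over the 46 rows, the carriers were at 1489 ± 139 RPKM in Con, 1704 ± 96.1 in A10, 1905 ± 89.8 in HS, 2041 ± 169 in HS+A10, 1699 ± 113 in Con-FMT and 1730.1 ± 73.3 in A10-FMT (SD over 3 libraries). The 3 HS sums of 1802 to 1965 RPKM all lay above the 3 Con sums of 1340.1 to 1614. The median of all tested genes also differed between groups, with a median log2 change over the 10204 genes of 0.14 in HS vs Con, -0.16 in A10-FMT vs HS and -0.12 in Con-FMT vs HS. When every library was scaled to the same median, the sums were 1573 in Con, 1703 in A10, 1771 in HS, 1956 in HS+A10, 1709 in Con-FMT and 1839 in A10-FMT, so that A10-FMT then lay above HS, and Con-FMT remained below it. Calls that depend on this scaling are named with each comparison. In bulk liver, fewer cells of a type and less RNA per cell cannot be told apart.

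**Figure D2:**
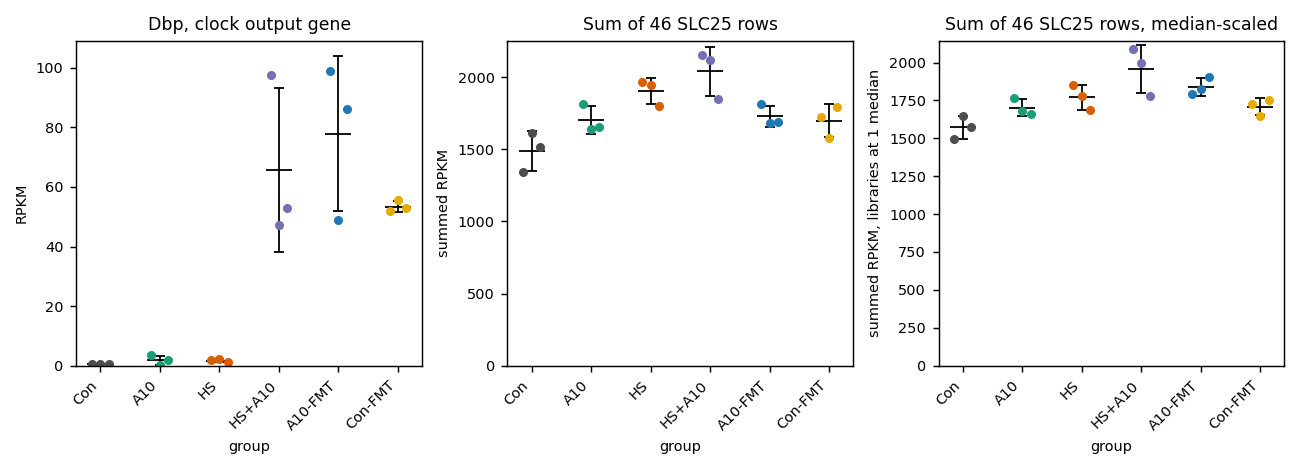
RPKM of the clock output gene Dbp (left), the summed RPKM of the 46 SLC25 rows as deposited (middle) and after median scaling (right). Points are libraries, bars show the mean and SD of 3 libraries per group, and Dbp is high in HS+A10, A10-FMT and Con-FMT while the carrier sum is lowest in Con.

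Reference promoter windows of 4 carriers that recur in the results are shown. Each runs from 250 bases before to 50 bases after a RefSeq transcript start in GRCm38.p6, 5′ to 3′ on the gene's strand. They are Slc25a22, the carrier with the largest called rise in HS, Slc25a20 and Slc25a47, which moved most alike of the carriers called in HS, and Slc25a25, which differed by donor. Capitals mark matches, on either strand, to the GC box, CCAAT box, E-box, TATA box, D-box or cyclic AMP response element (CRE), whose letters follow. Where a gene had several windows the outermost was taken, and for Slc25a25 the one with a CRE.
Slc25a22, chr7:141437825-141438124, strand -: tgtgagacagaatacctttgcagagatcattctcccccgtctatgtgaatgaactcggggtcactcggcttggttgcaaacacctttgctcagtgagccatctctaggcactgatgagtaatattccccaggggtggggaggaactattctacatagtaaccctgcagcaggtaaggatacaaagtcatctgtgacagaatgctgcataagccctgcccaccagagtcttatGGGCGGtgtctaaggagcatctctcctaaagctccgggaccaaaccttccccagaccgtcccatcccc
Slc25a20, chr9:108661886-108662185, strand +: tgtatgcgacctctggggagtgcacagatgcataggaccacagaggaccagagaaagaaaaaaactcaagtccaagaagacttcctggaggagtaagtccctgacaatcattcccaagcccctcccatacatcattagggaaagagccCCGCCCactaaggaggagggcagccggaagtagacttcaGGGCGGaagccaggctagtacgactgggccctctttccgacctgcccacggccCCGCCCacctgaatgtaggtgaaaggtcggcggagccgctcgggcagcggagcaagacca
Slc25a47, chr12:108850879-108851178, strand +: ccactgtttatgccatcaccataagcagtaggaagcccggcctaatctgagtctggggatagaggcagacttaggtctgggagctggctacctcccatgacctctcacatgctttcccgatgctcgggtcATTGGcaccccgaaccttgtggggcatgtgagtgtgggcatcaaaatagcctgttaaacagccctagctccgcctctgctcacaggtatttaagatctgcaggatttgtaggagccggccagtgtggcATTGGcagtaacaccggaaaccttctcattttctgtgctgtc
Slc25a25, chr2:32424017-32424316, strand -: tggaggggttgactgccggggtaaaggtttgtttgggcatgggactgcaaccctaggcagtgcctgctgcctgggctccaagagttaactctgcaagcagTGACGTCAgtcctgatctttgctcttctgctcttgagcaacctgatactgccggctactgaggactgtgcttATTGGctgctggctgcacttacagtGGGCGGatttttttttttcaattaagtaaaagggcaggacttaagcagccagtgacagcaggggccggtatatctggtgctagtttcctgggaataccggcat
The Slc25a22 window held 1 GC box, that of Slc25a20 held 3 GC boxes, and that of Slc25a47 held 2 CCAAT boxes and no GC box. The Slc25a25 window held 1 CRE, 1 CCAAT box and 1 GC box. RefSeq windows were found for 35 of the 46 carriers, 45 windows in all, and the reference holds 32851. The GC box, GGGCGG, was in 38 of the 45 carrier windows and in 35.7% of all windows. The CCAAT box, CCAAT, was in 22 of the carrier windows and in 37.4% of all windows. The E-box, CACGTG, was in 8 and in 7.15% of all, and the TATA box, TATAAA, in 2 and in 13.6% of all. The CRE, TGACGTCA, was in 2 (Slc25a25 and Slc25a36) and in 1.79% of all, and its half-site TGACG, which lies within it and is not capitalised on its own, in 13 and in 20.8% of all. The D-box, TTATGTAA, which clock output factors bind, was in 0 and in 0.938% of all. The carriers with an E-box were Slc25a1, Slc25a13, Slc25a14, Slc25a15, Slc25a31, Slc25a33 and Slc25a36. Such matches describe the reference sequence in these windows.

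The first comparison, HS vs Con, asked what the high-fat diet and STZ did. Of 36 tested carriers, 9 rose and 0 fell in HS, a share of 25%, against 17.7% of all genes called, 15.9% higher and 1.87% lower. The 9 were 4 amino acid carriers (Slc25a12, Slc25a13, Slc25a15 and Slc25a22), the dicarboxylate carrier Slc25a10, the acylcarnitine carrier Slc25a20, both glutathione-related carriers Slc25a39 and Slc25a40, and Slc25a47. The median log2 change of the 36 carriers was 0.24, beside 0.14 for all genes. With each library scaled to the same median, 3 carriers rose (Slc25a10, Slc25a15 and Slc25a22) and 2 fell (Slc25a1 and Slc25a23). The other 6 kept their direction there but not the call, with Slc25a20 at 0.54 (limma adjusted p = 0.0676), Slc25a13 at 0.58 (0.063) and Slc25a47 at 0.79 (0.113). Slc25a13 and Slc25a20 stayed called under quantile normalization, and these and Slc25a40 when libraries were scaled without genes of 1000 RPKM or more. The clock genes Nr1d1 (1.22 to 3.68 RPKM in Con, 17.2 to 26.96 in HS) and Nr1d2 (2.05 to 3.03 and 8.18 to 8.88) rose in the same comparison. The clock genes Npas2 (2.9 to 3.48 and 1.48 to 1.87 RPKM) and Cry1 (8.45 to 14.03 and 5.26 to 6.78) fell. Pecam1, 1 of 5 endothelial markers, and Cidec, the 1 adipocyte marker tested, rose as well. Of 6 hepatocyte markers, Tat was higher and Ttr lower. The part of these genes in the carrier results was not tested.

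Among the amino acid carriers, Slc25a22 (chr7:141429744-141437892, GRCm38, minus strand) imports glutamate into the matrix. Slc25a22 was at 39.2, 37 and 39.97 RPKM in Con, 52.8, 52.2 and 49.2 in A10, 105, 113 and 105 in HS, 85.1, 75.7 and 68.7 in HS+A10, 65.3, 66.2 and 53.4 in Con-FMT and 53.98, 50.4 and 63.3 in A10-FMT. The 3 HS libraries were the highest of the 18 and the 3 Con libraries the lowest, and the difference in HS vs Con was 1.45 ± 0.10 (SE), limma adjusted p = 1.39e-06, with an exact permutation p of 0.1, the smallest possible. This call held under all 17 alternatives, with changes from 1.27 to 1.48. The ornithine carrier Slc25a15 (chr8:22375551-22398597, minus strand) serves the urea cycle by exchanging ornithine for citrulline. Slc25a15 was at 63.4, 67.2 and 68.2 RPKM in Con, 80.9, 68.6 and 74.2 in A10, 96.6, 115 and 137 in HS, 75.5, 91.1 and 77.8 in HS+A10, 117, 105 and 107 in Con-FMT and 68.5, 64.1 and 82.6 in A10-FMT. All HS values lay above all Con values, by 0.79 ± 0.12 (SE), limma adjusted p = 0.00105, and this call was lost under 1 of 17 alternatives.

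The aspartate-glutamate carriers belong to the malate-aspartate shuttle, and Slc25a13 (citrin) is the liver form. Slc25a13 was at 35.02, 57.3 and 44.5 RPKM in Con, 51.1, 46.2 and 47.1 in A10, 84.2, 69.5 and 76.4 in HS, 101, 93.2 and 99.4 in HS+A10, 64.7, 55.8 and 96.3 in Con-FMT and 81.4, 58.1 and 44.7 in A10-FMT. Con and HS did not overlap, with a difference of 0.76 ± 0.21 (SE), limma adjusted p = 0.0247, a call kept under 9 of 17 alternatives. The other form, Slc25a12, was far lower in liver. Slc25a12 was at 4.43, 3.96 and 4.12 RPKM in Con, 4.71, 3.45 and 3.94 in A10, 6.29, 5.57 and 5.6 in HS, 6.57, 5.52 and 4.64 in HS+A10, 4.31, 3.26 and 4.6 in Con-FMT and 4.46, 3.38 and 3.72 in A10-FMT. It rose in HS by 0.40 ± 0.13 (SE), limma adjusted p = 0.0419, without overlap, a call kept under 4 of 16 alternatives.

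The dicarboxylate carrier Slc25a10 (chr11:120491840-120499187, plus strand) exchanges malate or succinate for phosphate. Slc25a10 was at 25.2, 24.6 and 27.9 RPKM in Con, 38.9, 32.6 and 32.1 in A10, 42.8, 47.6 and 40.3 in HS, 55.4, 45.5 and 37.8 in HS+A10, 22.4, 25.6 and 31.1 in Con-FMT and 46.5, 37.2 and 36.04 in A10-FMT. The HS values exceeded each Con value, by 0.73 ± 0.14 (SE), limma adjusted p = 0.00459, and the call held under all 17 alternatives. The carnitine-acylcarnitine carrier Slc25a20 (chr9:108662088-108684641, plus strand) admits acylcarnitines for fatty acid oxidation. Slc25a20 was at 24.1, 33.04 and 27.9 RPKM in Con, 38.9, 33.8 and 36.6 in A10, 66.8, 45.4 and 34.1 in HS, 77.1, 78.9 and 65.2 in HS+A10, 44.4, 38.03 and 46.7 in Con-FMT and 48.8, 51.03 and 40.4 in A10-FMT. Its HS values varied widely, the lowest only just above the highest Con value, and it rose by 0.72 ± 0.18 (SE), limma adjusted p = 0.0168. The call was kept under 10 of 17 alternatives, and without HS replicate 1 the change was 0.47, limma adjusted p = 0.0509.

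Slc25a47 (chr12:108836046-108856815, plus strand) is a carrier expressed mainly in liver. Slc25a47 was at 77.02, 74.2 and 82.8 RPKM in Con, 162, 114 and 118 in A10, 239, 164 and 93.9 in HS, 312, 324 and 213 in HS+A10, 202, 118 and 278 in Con-FMT and 202, 177 and 159 in A10-FMT. All HS libraries were above all Con libraries, but they ranged over more than the 3 Con libraries did, and the difference was 0.98 ± 0.31 (SE), limma adjusted p = 0.0402, kept under 5 of 17 alternatives. Slc25a39 and Slc25a40 are related proteins tied to glutathione import. Slc25a39 was at 195, 212 and 209.5 RPKM in Con, 221, 208 and 201 in A10, 245, 239 and 249 in HS, 258, 251 and 224 in HS+A10, 208, 209 and 193 in Con-FMT and 219, 201 and 203 in A10-FMT. The HS rise of Slc25a39 was small, 0.25 ± 0.074 (SE), limma adjusted p = 0.032, and after median scaling it was 0.063 ± 0.07 (SE), limma adjusted p = 0.633. Its call was kept under 6 of 17 alternatives. Slc25a40 was at 1.21, 1.11 and 1.36 RPKM in Con, 1.18, 1.37 and 1.48 in A10, 2.17, 1.58 and 1.97 in HS, 2.18, 1.92 and 1.84 in HS+A10, 1.24, 1.42 and 1.64 in Con-FMT and 1.8, 1.71 and 1.39 in A10-FMT. Slc25a40 was low throughout, lay higher in each HS library than in any Con library, and rose by 0.38 ± 0.10 (SE), limma adjusted p = 0.0186. That call was kept under 8 of 16 alternatives. The erythroid marker genes summed to 1256 to 1972 RPKM in Con and 2886 to 10041 RPKM in HS over 5 genes, of which Hba-a1 was called and Alas2, which marks maturing red cells, was at 114 to 121 RPKM in Con and 78.9 to 125 in HS. The part of blood cells in the Slc25a39 result was not tested.

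In all, 15 of 36 carriers had all HS values above all Con values and 1 (Slc25a45) all below, beside 32.6% and 4.17% of all genes. Leaving out single libraries moved the count of called carriers, to 3 without Con replicate 1, 4 without Con replicate 3 and 5 without HS replicate 1, and to 4 without the third libraries of both Con and A10. Slc25a10, Slc25a15 and Slc25a22 were called in each of these fits except that Slc25a15 was lost when the third Con-FMT library was left out too and libraries were median-scaled, which left 2 calls.

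**Figure D3:**
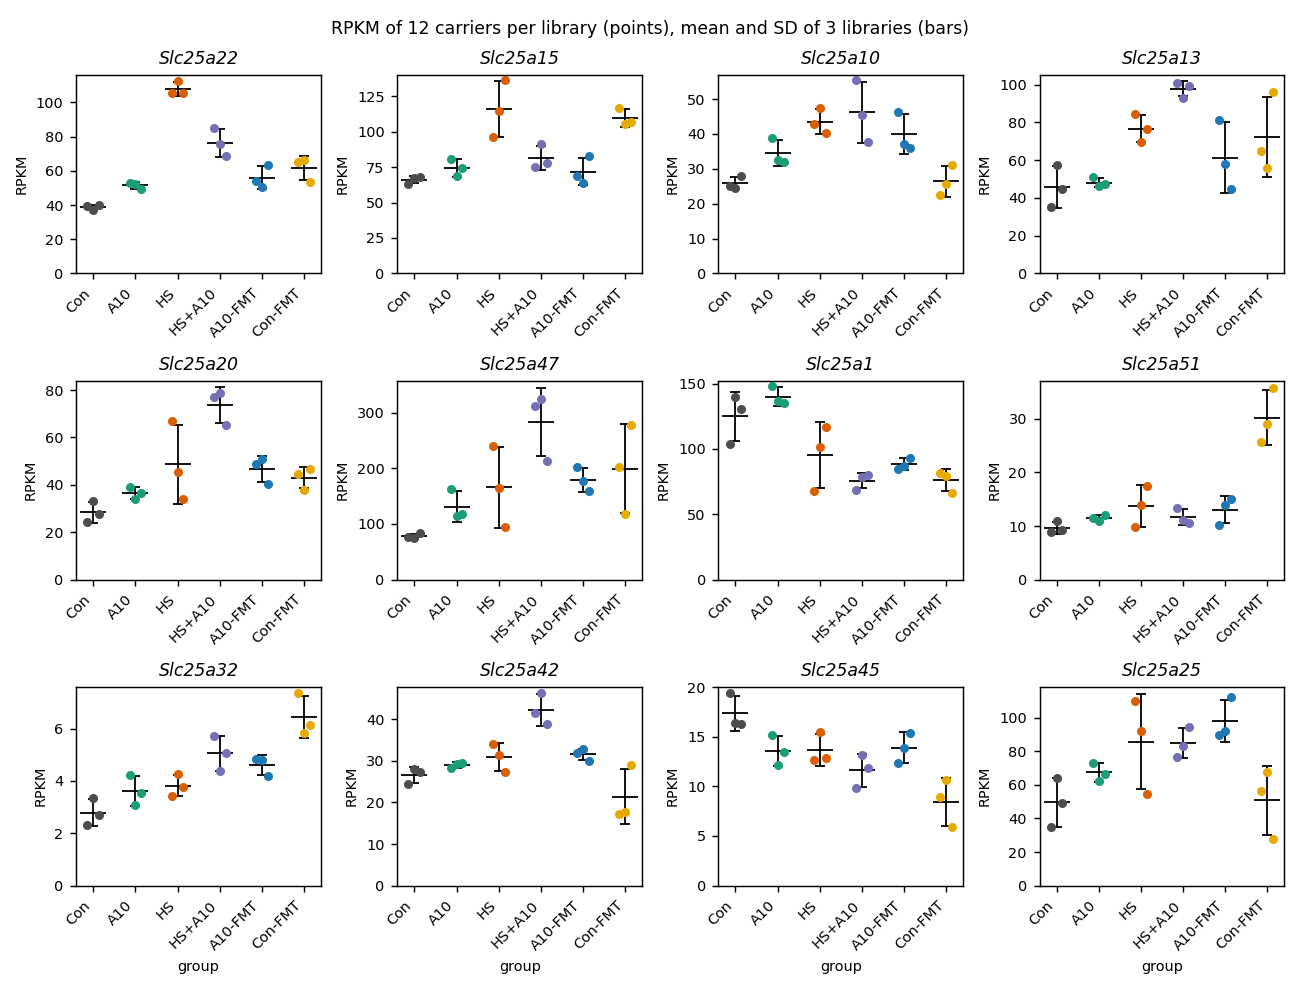
RPKM of 12 carriers in each library (points), with the mean and SD of 3 libraries per group (bars), all axes from 0. The 3 HS points of Slc25a22 lie at 105.3 to 113 RPKM, above every other library, the 3 Con-FMT points of Slc25a51 lie at 25.7 to 35.8 RPKM, and Slc25a1 is lower in HS+A10 than in A10.

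The same diet and STZ contrast with AOS in both arms, HS+A10 vs A10, shares no library with HS vs Con. Of the 36 carriers 12 were called, 11 higher and 1 lower in HS+A10, 33.3% against 20.9% of all genes, 13.6% higher and 7.28% lower. In all 15 carriers lay higher and 4 lower without overlap, beside 26.9% and 16.1% of all genes. Slc25a12, Slc25a13, Slc25a20, Slc25a22, Slc25a40 and Slc25a47 rose here as in HS vs Con, Slc25a21, Slc25a26, Slc25a32, Slc25a42 and Slc25a48 rose here, and the citrate carrier Slc25a1 fell. Dbp and 8 of 11 other clock genes differed in this comparison as well (6 higher and 3 lower in all), so phase and treatment cannot be told apart in it. Of other cell markers, 4 of 5 endothelial genes were higher (summed level of the list 35.6 to 44.6 RPKM in A10, 51.4 to 61.3 in HS+A10). So were 2 of 6 stellate genes (8.84 to 9.9 and 15.7 to 21.1 RPKM) and Cidec (0.23 to 0.29 and 6.54 to 9.51 RPKM). Sox9 was lower, as were Apoa1 and Ttr, 2 of 6 hepatocyte genes. The part of these markers in the carrier results was not tested.

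Slc25a1 (chr16:17925223-17928219, minus strand) exports citrate, the source of cytosolic acetyl-CoA for fatty acid synthesis. Slc25a1 was at 104, 140.0 and 131 RPKM in Con, 148, 136 and 136 in A10, 67.5, 102 and 117 in HS, 68.9, 78.2 and 79.8 in HS+A10, 81.9, 79.5 and 66.4 in Con-FMT and 84.98, 86.7 and 93.3 in A10-FMT. All 3 HS+A10 values were far below the 3 A10 values, with a difference of -0.88 ± 0.16 (SE), limma adjusted p = 0.00152, and the call held under all 17 alternatives. In HS vs Con the groups overlapped, with HS at 67.5 to 117 RPKM, and the difference was -0.41 ± 0.16 (SE), limma adjusted p = 0.0818. The oxodicarboxylate carrier Slc25a21, of lysine and tryptophan breakdown, was the other called member of its group. Slc25a21 was at 3.02, 4.15 and 3.52 RPKM in Con, 4.15, 4.77 and 3.62 in A10, 4.79, 4.73 and 4.5 in HS, 6.04, 6.31 and 5.87 in HS+A10, 3.78, 5.19 and 5.11 in Con-FMT and 4.77, 4.53 and 4.68 in A10-FMT. It was higher in HS+A10 without overlap, by 0.45 ± 0.11 (SE), limma adjusted p = 0.00785.

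Slc25a20 and Slc25a13 were each higher in all 3 HS+A10 libraries than in any A10 library, by 0.99 ± 0.18 (SE), limma adjusted p = 0.00172 and by 1.01 ± 0.21 (SE), limma adjusted p = 0.00394, and both calls held under all 17 alternatives. Slc25a22 rose by 0.56 ± 0.10 (SE), limma adjusted p = 0.00152, Slc25a47 by 1.10 ± 0.31 (SE), limma adjusted p = 0.0204, Slc25a40 by 0.35 ± 0.10 (SE), limma adjusted p = 0.0226 and Slc25a12, whose groups overlapped, by 0.38 ± 0.13 (SE), limma adjusted p = 0.0443. The Slc25a12 call was kept under 6 of 16 alternatives. Slc25a48 is a carrier linked to choline. Slc25a48 was at 2.13, 3.25 and 3.2 RPKM in Con, 4.07, 2.62 and 3.18 in A10, 3.28, 3.5 and 5.37 in HS, 6.3, 4.61 and 4.95 in HS+A10, 2.68, 2.58 and 2.98 in Con-FMT and 3.79, 3.57 and 3.64 in A10-FMT. Its HS+A10 values were above the A10 values, by 0.56 ± 0.16 (SE), limma adjusted p = 0.0231.

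Of 8 tested cofactor and nucleotide carriers, 3 rose in HS+A10, beside 13.6% of all genes. Slc25a42 (chr8:70184340-70212305, minus strand) brings coenzyme A into the matrix. Slc25a42 was at 24.4, 27.97 and 27.4 RPKM in Con, 28.3, 29.3 and 29.4 in A10, 34.04, 31.3 and 27.3 in HS, 41.6, 46.2 and 38.8 in HS+A10, 17.3, 17.8 and 28.9 in Con-FMT and 31.8, 32.8 and 29.98 in A10-FMT. The HS+A10 libraries were the 3 highest of all, and the difference from A10 was 0.52 ± 0.14 (SE), limma adjusted p = 0.019. Slc25a32 (chr15:39091231-39112716, minus strand) carries folates or the flavin FAD. Slc25a32 was at 2.33, 3.33 and 2.7 RPKM in Con, 4.24, 3.09 and 3.54 in A10, 3.44, 4.27 and 3.76 in HS, 5.72, 4.38 and 5.07 in HS+A10, 7.34, 5.82 and 6.14 in Con-FMT and 4.83, 4.8 and 4.17 in A10-FMT. The HS+A10 values lay above the A10 values, by 0.39 ± 0.12 (SE), limma adjusted p = 0.0331, a call kept under 8 of 16 alternatives. The S-adenosylmethionine carrier Slc25a26 had a smaller spread. Slc25a26 was at 2.85, 3.75 and 3.17 RPKM in Con, 3.08, 3.08 and 3.15 in A10, 3.69, 3.44 and 3.38 in HS, 4.46, 4.44 and 3.93 in HS+A10, 4.14, 3.33 and 4.6 in Con-FMT and 3.74, 3.77 and 2.7 in A10-FMT. It rose by 0.36 ± 0.11 (SE), limma adjusted p = 0.0311, without overlap, a call kept under 8 of 16 alternatives. Median scaling left 12 calls, with Slc25a23 lower and Slc25a12 no longer called. The count fell to 5 without A10 replicate 2, 7 without A10 replicate 3, 6 without HS+A10 replicate 1 and 5 without the third libraries of Con and A10, with Slc25a1, Slc25a13, Slc25a20 and Slc25a22 called in each of these fits.

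Set side by side, 34 of the 36 carriers changed in the same direction in HS vs Con and HS+A10 vs A10, 94.44%, beside 69.88% of all 10204 genes. The exceptions were Slc25a28 and Slc25a38, neither called in either. Of the 9 and 12 called carriers, 6 were called in both, all higher, which is 16.7% of the 36 beside 8.96% of all genes called the same way in both. Whether the diet and STZ effect differed with AOS was tested as an interaction, and limma called 0 of 36 carriers (0.00980% of all genes) with 3 at an unadjusted p under 0.05. The 2 smallest adjusted p were those of Slc25a22, with an interaction of -0.89 ± 0.14 (SE), limma adjusted p = 0.0591, and of Slc25a15, with -0.66 ± 0.17 (SE), limma adjusted p = 0.148, both smaller rises with AOS. Of the 4 groups in it, HS+A10 alone was in the set with high Dbp, so AOS and daily phase cannot be told apart in the interaction. Slc25a22 passed the threshold with a pseudocount of 0.1, with the filter at 5 RPKM, with only the compared groups fitted, and without HS replicate 1, HS+A10 replicate 1 or HS+A10 replicate 2.

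**Figure D4:**
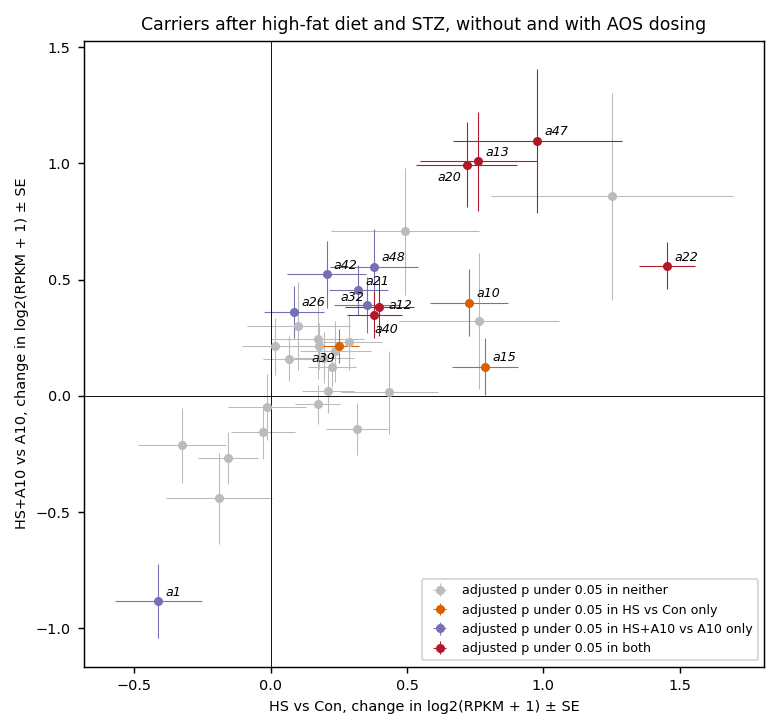
Change in log2(RPKM + 1) of the 36 tested carriers in HS vs Con (horizontal axis) and HS+A10 vs A10 (vertical axis), with bars of 1 SE and labels without the Slc25 prefix. Most points lie in the upper right quadrant, 6 are called in both contrasts, Slc25a22 lies at 1.45 and 0.56, Slc25a15 at 0.79 and 0.13, and Slc25a1 lies lowest at -0.88 on the vertical axis.

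The A10 vs Con comparison, of the labelled AOS dose without diet and STZ, gave no called carrier. limma called 0 of 36 (0.0686% of all genes, which is 7 genes), with 8 carriers at an unadjusted p under 0.05, 22.2% beside 13.9% of all genes. The median change of the carriers was 0.16, beside 0.066 for all genes. Without overlap 10 carriers were higher and 1 (Slc25a45) lower, beside 19.6% and 5.27% of all genes. The smallest adjusted p belonged to Slc25a22, whose values listed above were higher in all 3 A10 libraries than in any Con library, with a difference of 0.40 ± 0.10 (SE), limma adjusted p = 0.14. Next was Slc25a16, a carrier linked to coenzyme A. Slc25a16 was at 18.2, 21.7 and 18.7 RPKM in Con, 25.1, 22.98 and 24.2 in A10, 23.1, 23.02 and 22.6 in HS, 26.6, 27.7 and 24.7 in HS+A10, 22.2, 20.1 and 25.4 in Con-FMT and 25.3, 24.1 and 22.4 in A10-FMT. A10 exceeded Con without overlap, by 0.29 ± 0.087 (SE), limma adjusted p = 0.189. The count was 0 under every alternative that was run.

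Direct AOS dosing under diet and STZ, HS+A10 vs HS, crosses the sets of low and high Dbp, with 10 of 12 clock genes called. The markers Pecam1 and Cidec were higher and Sox9 lower in HS+A10, and their part in the carrier results was not tested. Of the 36 carriers 1 rose and 2 fell, 8.33% against 7.32% of all genes, 2.95% higher and 4.37% lower. Without overlap 9 were higher and 3 lower, beside 11.6% and 15.7% of all genes. The glutamate carrier Slc25a22 was lower in all 3 HS+A10 libraries than in HS and fell by 0.49 ± 0.10 (SE), limma adjusted p = 0.0123, and the ornithine carrier Slc25a15 likewise fell by 0.50 ± 0.12 (SE), limma adjusted p = 0.0253. The acylcarnitine carrier Slc25a20 rose by 0.64 ± 0.18 (SE), limma adjusted p = 0.0486, although 1 HS value of 66.8 RPKM lay above the lowest HS+A10 value of 65.2. That call was kept under 6 of 17 alternatives, and without HS replicate 3 the change was 0.41, limma adjusted p = 0.199. Median scaling added Slc25a16, Slc25a21, Slc25a37 and Slc25a42 as higher, 5 higher and 2 lower in all. The calls depended on single libraries, with 6 called without HS replicate 1, 0 without HS replicate 2, and 1 without HS replicate 3, HS+A10 replicate 1, HS+A10 replicate 3 or the third Con and A10 libraries.

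Recipients of AOS-donor microbiota were compared with HS, again across the sets of low and high Dbp. Of the 36 carriers 0 rose and 4 fell in A10-FMT, 11.1% against 23.1% of all genes, 2.09% higher and 21.02% lower. Without overlap 1 was higher and 6 lower, beside 4.59% and 32.8% of all genes. Slc25a22 was at 50.4 to 63.3 RPKM in A10-FMT and 105.3 to 113 in HS, and fell by 0.94 ± 0.10 (SE), limma adjusted p = 0.000124, while Slc25a15 was at 64.1 to 82.6 and 96.6 to 137 RPKM, and fell by 0.68 ± 0.12 (SE), limma adjusted p = 0.00204. Both calls held under all 17 alternatives. Slc25a12 fell by 0.50 ± 0.13 (SE), limma adjusted p = 0.0133 and Slc25a39 fell by 0.23 ± 0.074 (SE), limma adjusted p = 0.0343, and neither stayed called after median scaling, under which Slc25a16, Slc25a23 and Slc25a32 were higher instead. Erythroid genes summed to 1135 to 2049 RPKM in A10-FMT, below all HS values, and the part of blood cells in the fall of Slc25a39 was not tested. Kupffer and macrophage genes fell as well, 4 of 6 (summed level of the list 44.2 to 76.1 RPKM in HS, 28.6 to 37.9 in A10-FMT), as did 2 of 5 endothelial genes, Sox9 and the urea cycle enzyme Cps1, and their part was not tested. Without A10-FMT replicate 2 the count was 2.

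Con-FMT vs HS, with microbiota of control donors, also crosses the sets of low and high Dbp, with 7 of 12 clock genes higher and 3 lower. Of the carriers 2 rose and 6 fell in Con-FMT, 22.2% against 23.6% of all genes, 4.61% higher and 19.04% lower. Without overlap 3 were higher and 10 lower, beside 7.11% and 27.9% of all genes. Both comparisons use the same HS libraries, so their values are given side by side and no overlap is read from them. Slc25a51 (chr4:45395923-45408766, minus strand), which imports the redox cofactor NAD, rose. Slc25a51 was at 8.91, 11.01 and 9.17 RPKM in Con, 11.5, 11 and 11.99 in A10, 9.82, 13.9 and 17.5 in HS, 13.3, 11.1 and 10.6 in HS+A10, 25.7, 29.1 and 35.8 in Con-FMT and 10.2, 13.9 and 15.03 in A10-FMT. The Con-FMT libraries were the 3 highest of the 18, and the difference from HS was 1.10 ± 0.18 (SE), limma adjusted p = 0.00065, while in A10-FMT vs HS it was -0.054 ± 0.18 (SE), limma adjusted p = 0.844. Slc25a32 rose too, by 0.62 ± 0.12 (SE), limma adjusted p = 0.00237, with its 3 Con-FMT values above every other library. Both calls held under each alternative run for them.

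The carriers that fell in Con-FMT included Slc25a22, which fell by 0.80 ± 0.10 (SE), limma adjusted p = 0.000111, and Slc25a10, which fell by 0.71 ± 0.14 (SE), limma adjusted p = 0.00286, with no overlap with HS. In A10-FMT vs HS the change of Slc25a10 was -0.13 ± 0.14 (SE), limma adjusted p = 0.522. Slc25a15, which fell in A10-FMT, differed in Con-FMT from HS by -0.07 ± 0.12 (SE), limma adjusted p = 0.714. Slc25a45 (chr19:5877808-5885878, plus strand) is listed with the amino acid carriers. Slc25a45 was at 19.4, 16.4 and 16.3 RPKM in Con, 15.2, 12.1 and 13.4 in A10, 12.6, 15.5 and 12.9 in HS, 9.82, 13.2 and 11.8 in HS+A10, 8.91, 10.6 and 5.86 in Con-FMT and 12.4, 13.9 and 15.4 in A10-FMT. The Con-FMT values were below the HS values without overlap, a difference of -0.66 ± 0.16 (SE), limma adjusted p = 0.00908. Slc25a42 overlapped with HS through Con-FMT replicate 3 and fell by 0.55 ± 0.14 (SE), limma adjusted p = 0.0137. Slc25a12 fell by 0.44 ± 0.13 (SE), limma adjusted p = 0.021 and Slc25a39 fell by 0.26 ± 0.074 (SE), limma adjusted p = 0.0177, both lost after median scaling, which gave 4 higher and 4 lower calls, with Slc25a33 and Slc25a38 added as higher. In the same comparison 3 of 4 tested erythroid genes fell (Hbb-bt, Hbb-bs and Hba-a1), the sum of the 5 listed being 2886 to 10041 RPKM in HS and 876 to 3619 in Con-FMT, and Alas2 was not called. The part of blood cells in the fall of Slc25a39 was not tested here either. The endothelial gene Stab2 was higher and Kdr lower, as was the stellate gene Lrat, and their part was not tested. Without Con-FMT replicate 3, the library with pancreatic mRNA, 8 carriers were called, with Slc25a40 lower in place of Slc25a39.

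The donor comparison, A10-FMT vs Con-FMT, stays in the set with high Dbp, with 0 of 12 clock genes called, and uses no HS library. Per1 was lower in A10-FMT without overlap, at 4.01 to 8.87 RPKM against 10.96 to 14.21, so phase was not shown to be matched. Of the 36 carriers 5 were higher and 3 lower in A10-FMT, 22.2% against 18.8% of all genes, 6.72% higher and 12.03% lower. Without overlap 10 were higher and 5 lower, beside 12.1% and 19.4% of all genes. Higher were the ATP-Mg carrier Slc25a25, the dicarboxylate carrier Slc25a10, the coenzyme A carrier Slc25a42, Slc25a45 and the iron carrier Slc25a28. Lower were the NAD carrier Slc25a51, the ornithine carrier Slc25a15 and Slc25a32. The median change of the carriers was 0.026, beside -0.033 for all genes. The markers Pecam1 and Lyve1 (2 of 5 endothelial), Sox9, Cps1 and Tat were lower in A10-FMT, and their part in the carrier results was not tested.

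Slc25a51 was at 25.7 to 35.8 RPKM in Con-FMT and 10.2 to 15.03 in A10-FMT, a difference of -1.16 ± 0.18 (SE), limma adjusted p = 0.000579. Slc25a15 was at 105 to 117 and 64.1 to 82.6 RPKM, a difference of -0.61 ± 0.12 (SE), limma adjusted p = 0.00317. Neither carrier's groups overlapped, and both calls held under all 17 alternatives. Slc25a32 was lower without overlap, a difference of -0.41 ± 0.12 (SE), limma adjusted p = 0.0303, a call kept under 8 of 16 alternatives.

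Slc25a10 was higher in A10-FMT, by 0.58 ± 0.14 (SE), limma adjusted p = 0.0111, Slc25a42 by 0.58 ± 0.14 (SE), limma adjusted p = 0.0121 and Slc25a45 by 0.68 ± 0.16 (SE), limma adjusted p = 0.00885, each without overlap. Slc25a25 (chr2:32414487-32451445, minus strand) exchanges ATP-Mg for phosphate under calcium control and has the CRE in the window printed above. Slc25a25 was at 34.9, 64.3 and 49.3 RPKM in Con, 73.2, 62.4 and 66.4 in A10, 110.2, 92.2 and 54.6 in HS, 76.5, 83.3 and 94.1 in HS+A10, 56.6, 67.8 and 27.9 in Con-FMT and 89.7, 92.3 and 113 in A10-FMT. It was higher in A10-FMT by 1.02 ± 0.29 (SE), limma adjusted p = 0.0246, but Con-FMT replicate 3 had the lowest value of the 18 libraries, and without it the change was 0.65, limma adjusted p = 0.101. Slc25a28 (mitoferrin-2) carries iron. Slc25a28 was at 10.5, 10.5 and 9.76 RPKM in Con, 12.5, 12.2 and 10.2 in A10, 11.3, 11.8 and 12.01 in HS, 12.5, 11.2 and 10.3 in HS+A10, 10.7, 9.98 and 9.38 in Con-FMT and 12.7, 12.8 and 11.6 in A10-FMT. The difference was 0.28 ± 0.083 (SE), limma adjusted p = 0.0301, and without Con-FMT replicate 3 it was 0.24, limma adjusted p = 0.101. That replicate left out, 6 carriers were called, and 5 without A10-FMT replicate 2 or Con-FMT replicate 1. Median scaling gave 8 higher and 3 lower, with Slc25a11, Slc25a23 and Slc25a37 added as higher.

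**Figure D5:**
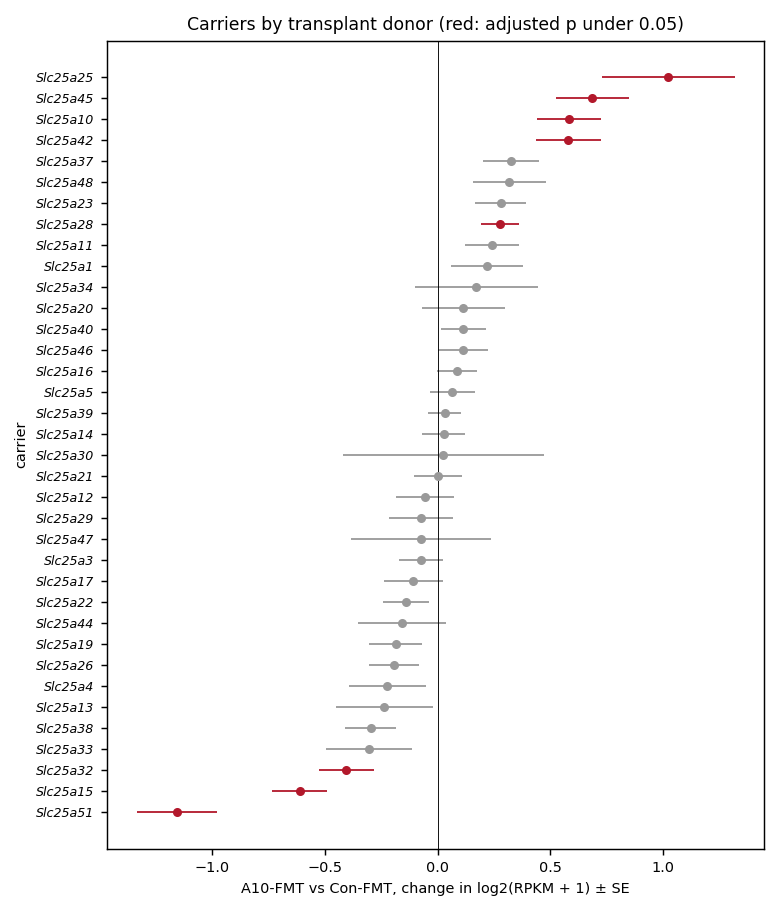
Change in log2(RPKM + 1) of the 36 tested carriers in A10-FMT vs Con-FMT (horizontal axis, bars of 1 SE), ordered by size, with called carriers in red. Slc25a51 lies lowest at -1.16 and Slc25a25 highest at 1.02, and 8 carriers are called.

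Several carriers with central roles in liver were called in none of the 7 comparisons. The abundant ADP-ATP exchanger was one. Slc25a5 was at 234, 294 and 267 RPKM in Con, 302, 270.1 and 271 in A10, 296, 317 and 284 in HS, 359.6, 326 and 295 in HS+A10, 285, 262 and 277 in Con-FMT and 319, 273 and 273 in A10-FMT. The muscle form Slc25a4 was far lower. Slc25a4 was at 2.7, 1.94 and 2.17 RPKM in Con, 2.72, 2.32 and 2.4 in A10, 2.68, 3.46 and 2.01 in HS, 2.8, 4.03 and 2.65 in HS+A10, 3.37, 2.19 and 2.14 in Con-FMT and 1.87, 1.67 and 2.6 in A10-FMT. The phosphate carrier is needed for ATP synthesis. Slc25a3 was at 172, 209 and 194 RPKM in Con, 217, 209 and 209.7 in A10, 209, 245 and 211 in HS, 230.2, 231 and 187 in HS+A10, 198, 194 and 212 in Con-FMT and 188, 196 and 189.7 in A10-FMT. HS lay just above Con in every library for Slc25a3, and the groups overlapped for Slc25a5 and Slc25a4. In HS vs Con the changes were 0.18 ± 0.10 (SE), limma adjusted p = 0.216 for Slc25a5, 0.17 ± 0.17 (SE), limma adjusted p = 0.495 for Slc25a4 and 0.21 ± 0.10 (SE), limma adjusted p = 0.134 for Slc25a3.

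The 2-oxoglutarate carrier Slc25a11 works with the aspartate-glutamate carriers in the malate-aspartate shuttle. Slc25a11 was at 28.6, 39.2 and 35.4 RPKM in Con, 46.6, 39.4 and 40.9 in A10, 44.7, 43.03 and 38.1 in HS, 56.6, 51.8 and 41.9 in HS+A10, 36.5, 35.9 and 35.2 in Con-FMT and 45.9, 41.6 and 40.4 in A10-FMT. Its change was 0.29 ± 0.12 (SE), limma adjusted p = 0.101 in HS vs Con. Slc25a37 (mitoferrin-1) is the iron carrier of red cell precursors. Slc25a37 was at 8.28, 12.1 and 10.3 RPKM in Con, 11.3, 11.3 and 12.8 in A10, 10.2, 10.9 and 9.66 in HS, 16.1, 11.97 and 13.6 in HS+A10, 8.6, 8.44 and 10.1 in Con-FMT and 12.8, 11.3 and 10.7 in A10-FMT. The highest of the 18 values was in HS+A10, and the change in HS vs Con, where the erythroid sum was higher, was 0.017 ± 0.12 (SE), limma adjusted p = 0.936. Slc25a38 imports glycine for haem synthesis. Slc25a38 was at 10.1, 13.8 and 10.8 RPKM in Con, 14.7, 13.1 and 13.6 in A10, 13.1, 13.4 and 17.6 in HS, 12.6, 12.4 and 12.1 in HS+A10, 16.9, 16.6 and 17.4 in Con-FMT and 15.1, 12.99 and 12.9 in A10-FMT. It was highest in HS replicate 3 and in Con-FMT, with a change of 0.32 ± 0.11 (SE), limma adjusted p = 0.0635 in HS vs Con. The second glutamate carrier, Slc25a18, was close to 0. Slc25a18 was at 0.02, 0.11 and 0.07 RPKM in Con, 0.05, 0.07 and 0.04 in A10, 0.08, 0 and 0.08 in HS, 0.11, 0.07 and 0.07 in HS+A10, 0, 0.07 and 0.15 in Con-FMT and 0.05, 0 and 0.04 in A10-FMT. It was under the minimum for testing, so that nearly all glutamate carrier mRNA of this pair was Slc25a22.

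By role, the amino acid carriers summed to 192 to 225 RPKM in Con and 336 to 385 in HS, and the adenine nucleotide carriers to 372 to 504 and 459 to 521 RPKM, the first without and the second with overlap. Of the 9 tested carriers listed with the amino acid carriers, 4 rose in HS vs Con, with changes from -0.32 to 1.45. In HS+A10 vs A10 4 rose as well, beside 15.9% and 13.6% of all genes higher in these comparisons. The list and its sum include Slc25a48, described above as linked to choline, which is among the second 4. Slc25a48 made up 2.13 to 3.25 RPKM of the sum in Con and 3.28 to 5.37 in HS. Of the 4 tested adenine nucleotide carriers 0 were called in either, and of the 8 cofactor carriers 0 were called in HS vs Con, with changes from -0.028 to 0.43. At those shares of all genes, counts of 0 in lists of this size say nothing particular to them. The uncoupling-protein-related carriers Slc25a14 and Slc25a30 were called nowhere, although Slc25a30 ranged from 3.63 to 26.7 RPKM, with a coefficient of variation of 66.9% in HS, the highest there. Of the 36 carriers, 19 (52.8%) were called in at least 1 of the 7 comparisons and 17 in none, beside 56.1% of all genes called in at least 1. Slc25a22 was called in 5, Slc25a12 and Slc25a15 in 4 each.

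Across the 18 libraries, the carrier most like Slc25a20 in log2(RPKM + 1) was Slc25a47 (r = 0.91), and for Slc25a13 it was Slc25a26 (r = 0.85). Slc25a12 and Slc25a39 were nearest to each other (r = 0.82), Slc25a10 was nearest to Slc25a11 (r = 0.82), Slc25a40 to Slc25a13 (r = 0.78), Slc25a22 to Slc25a39 (r = 0.77) and Slc25a15 to Slc25a22 (r = 0.73). These correlations describe 18 libraries that share groups and scaling. Carriers lie within 100 kb of each other in 3 pairs in GENCODE M21, and the levels within each pair differed widely. Slc25a43 and Slc25a5 on chromosome X are 18448 bases apart, with means of 0.036 and 289 RPKM. Slc25a41 and Slc25a23 on chromosome 17 are 2056 bases apart, with 0.013 and 120.3 RPKM. Slc25a29 and Slc25a47 on chromosome 12 lie on opposite strands with 162 bases between the annotated genes, with 1.44 and 173 RPKM, although the RefSeq start of Slc25a47 printed above lies inside the longer GENCODE gene.

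Related mitochondrial genes were read beside the carriers from lists written for this purpose. Of 3 tested relatives with other names, only Ucp2, an uncoupling protein, was called in HS vs Con, higher by 1.06 ± 0.20 (SE), limma adjusted p = 0.003, and it fell in A10-FMT vs HS by 0.90 ± 0.20 (SE), limma adjusted p = 0.00589. Mtch2, another of the 3, was called lower in A10-FMT vs HS and in Con-FMT vs HS. Of 9 genes for import of carrier proteins, 1 rose, Tomm70a, the outer membrane receptor for carrier precursors, by 0.26 ± 0.083 (SE), limma adjusted p = 0.0422. Of 12 genes of general mitochondrial content, 5 rose in HS vs Con and 6 in HS+A10 vs A10, with medians of 0.27 and 0.31, beside carrier medians of 0.24 and 0.22. In HS+A10 vs A10 the import genes gave 2 higher and 1 lower. In A10-FMT vs Con-FMT the import genes (Tomm20) and content genes (Hspd1) gave 1 lower each. In HS vs Con and HS+A10 vs A10 all genes had medians of 0.14 and 0.043, and 15.9% and 13.6% were called higher. In A10-FMT vs HS 2 content genes were lower (Phb and Hspd1), and in Con-FMT vs HS 2 were lower (Phb and Cs). The content medians there were -0.16 and -0.17, beside -0.16 and -0.12 for all genes, of which 21.02% and 19.04% were called lower.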

How the data were processed

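Liver mRNA of 18 libraries (6 groups of 3, grouped by the labels) had been enriched with oligo(dT) and sequenced by the authors. The authors deposited 1 table of RPKM with 2 decimals. The methods name SOAPaligner 2.20 and reads mapped to reference genes, whereas the submitters' notes list Bowtie 0.12.2 and mm10, so the aligner is uncertain. RPKM cannot be returned to counts and depth in reads is unknown, so counting intervals are not given. Steps between low values of 73 genes put relative depth between 0.954 and 1.06, and RPKM summed to 692818 to 806937 per library. Reads shared by similar carriers could be split between rows, and strand was not stated.

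Values were used as deposited. In R 4.3.3 with limma 3.58.1, log2(RPKM + 1) of the 10204 genes whose mean reached 1 RPKM was fitted over all 18 libraries, group means being the coefficients and the variance following a trend, for 7 comparisons (both directions tested) and an interaction, adjusted by Benjamini-Hochberg over all tested genes. DEGseq, the authors' test, needs reads and was not used. The columns all mapped to samples. Named with values in every library are called carriers (up to 10 per comparison by adjusted p), the 2 smallest adjusted p where none was called, and carriers with established liver roles. For HS+A10 vs A10, whose called carriers number 12, the other 2 are named as well. On data simulated for HS vs Con over these genes, 187 of 200 genes given a log2 change of 1 were called correctly, with 9 unchanged genes called. Positions are from GENCODE M21 (GRCm38) and promoter windows from RefSeq (GRCm38.p6), read with Python 3.11.15. The fit was repeated without a filter, with a filter at 5 RPKM, with 0.1 as pseudocount, and with median scaling, quantile normalization, a replicate block, only the groups compared, no variance trend and each library left out. Leaving out the third libraries of Con and A10, doing so with that of Con-FMT under median scaling, and scaling without genes of 1000 RPKM or more were chosen after seeing the data. The members, lists and named carriers were chosen with earlier results of these data known. The labels do not pair samples by replicate number, as described under the dependence on processing. A list of related membrane proteins is not reported here.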

Additional observations from a re-analysis of the deposited data

Results flagged for a closer look

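Con-FMT replicate 3 held a signal outside the carrier measurement. The 11 pancreatic acinar marker genes took up 3.11% of its RPKM, against at most 0.0055% in the Con libraries. Cela1 was at 1124 RPKM and Clps at 2058 RPKM there, while in the other libraries Clps was at 0 to 0.47 RPKM. Slc25a25 had its lowest value, 27.9 RPKM, and Slc25a45 its lowest, 5.86 RPKM, in the same library. The part of pancreatic mRNA in these values was not tested.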

How the results depend on the processing

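Counts of called carriers are out of the 36 tested, except where the filter was changed. No called change reversed its direction under any alternative run for it. For the carriers' own changes, 465 values under planned and 88 under added alternatives kept their side of the threshold, while 139 and 44 lost the call. Of the counts of called carriers, 90 planned and 17 added stayed within 1.5 times that reported, and 28 and 7 moved further. Median scaling moved HS vs Con from 9 to 5 and HS+A10 vs HS from 3 to 7, and quantile normalization moved the latter to 7. With only the groups compared, the counts were 4 in HS vs Con, 0 in HS+A10 vs HS, 4 in Con-FMT vs HS (8 reported), 2 in A10-FMT vs Con-FMT (8 reported) and 1 for the interaction (0 reported), which was also 1 with a pseudocount of 0.1 or a filter at 5 RPKM. That filter gave 7 in HS+A10 vs A10 (12 reported), with fewer carriers tested. Without the third libraries of Con and A10 the counts were 4 in HS vs Con, 5 in HS+A10 vs A10 and 1 in HS+A10 vs HS. Without those of Con, A10 and Con-FMT and with median scaling they were 2 in HS vs Con, 6 in HS+A10 vs A10 and 5 in Con-FMT vs HS. Scaling without genes of 1000 RPKM or more gave 6 in HS vs Con, 6 in HS+A10 vs HS and 12 in A10-FMT vs Con-FMT. Except where samples or genes were fewer by construction, the cause was not tested. Leaving out 1 library gave 3 to 10 in HS vs Con, 5 to 14 in HS+A10 vs A10, 0 to 0 in A10 vs Con, 0 to 6 in HS+A10 vs HS, 2 to 5 in A10-FMT vs HS (4 reported), 7 to 10 in Con-FMT vs HS, 5 to 6 in A10-FMT vs Con-FMT and 0 to 2 for the interaction.

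With the replicate number as a block (the replicate block), the counts were 10 in HS vs Con, 12 in HS+A10 vs A10, 0 in A10 vs Con, 2 in HS+A10 vs HS, 5 in A10-FMT vs HS, 9 in Con-FMT vs HS, 8 in A10-FMT vs Con-FMT and 0 for the interaction. The labels give no shared animal or day for a number, so by the labels the libraries share only a number. Deviations of same-numbered libraries correlated at -0.13 to 0.26 (median 0.0067). Of 18 libraries, 10 correlated best with their own number, a hint from the data and not the design, which does not settle whether numbers pair samples. The number of reads behind each RPKM is unknown, so carriers near 1 RPKM carry an unknown counting error.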
